A study of Homo sapiens with 6 samples.

Results

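The integrated stress response and its supply genes were followed as 47 mRNAs in HT1080 cells, an established human fibrosarcoma line, exposed to SW-138 or SW-113. The 47 were chosen by name: 4 eIF2 kinases, 15 genes for ATF4, its partners and regulators, 10 metabolic enzymes, 6 amino acid transporters and 12 cytosolic tRNA synthetases. They are 47 of 60675 gene rows. The gene-name column held 35 of them under the current symbol, and 12 synthetases were found by gene ID under an older symbol (AARS for AARS1). The series concerns the selectivity of drugs against KDAC6, a lysine deacetylase also called HDAC6 that acts mostly in the cytoplasm. One group of 3 libraries came from wild-type HT1080 cells given SW-138 at 1 µM for 48 h, and another group of 3 from the same cells given SW-113 at the same dose and time. No vehicle group was analysed here, so a rise under SW-138 and a fall under SW-113 cannot be told apart. The labels do not say that replicates were separate cultures, so the p-values measure the spread between these libraries, which may be technical.

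In the integrated stress response, 4 kinases sense different stresses and phosphorylate the initiation factor eIF2: EIF2AK1 (HRI, heme shortage and mitochondrial stress), EIF2AK2 (PKR, double-stranded RNA), EIF2AK3 (PERK, endoplasmic reticulum stress) and EIF2AK4 (GCN2, amino acid shortage). Phosphorylated eIF2 slows general translation, while the mRNA of the transcription factor ATF4 is translated more. ATF4 then raises genes for amino acid synthesis, amino acid uptake and tRNA charging. Because ATF4 is controlled largely at translation, its mRNA level is no measure of its protein.

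The libraries held 32771670 to 50871623 estimated read counts. Levels are given as CPM, a gene's count relative to its library total, scaled by TMM (trimmed mean of M-values). Stable noncoding RNAs took 7.35% to 9.99% of counts in SW-138 libraries and 11.1% to 12.6% in SW-113 libraries. On principal component 1, which held 33.3% of the variance, SW-138 replicate 2 was at 35.6 and no other library was outside -21.6 to 5.52. Of 10 mesenchymal markers fixed for the line, 9 had enough counts to test, and vimentin (VIM) averaged 3763 CPM in SW-138 libraries and 3465 CPM in SW-113 libraries. Of these 9, TWIST1 (log2 -0.42) and TGFBI (-0.24) were lower under SW-138 (edgeR adjusted p = 0.0126 and 0.0385). None, VIM included, was higher at an adjusted p under 0.05. The untested THY1 was near 0 CPM. The 6 epithelial, 5 blood and 3 endothelial markers stayed at or below 0.54, 0.0418 and 0.265 CPM on average in SW-138 libraries and 0.555, 0.025 and 0.309 CPM in SW-113 libraries. Of 3 neuronal markers, SNAP25 averaged 11.8 CPM in SW-138 libraries and 9.66 CPM in SW-113 libraries (edgeR adjusted p = 0.0869), and the others were at or below 0.276 CPM in SW-138 libraries and 0.201 CPM in SW-113 libraries. The part of these markers in the results was not tested.

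The compounds differed at 5 of the 47 genes, or 10.6%. Of all tested genes 6.82% differed, and 9.76% of those within the same range of mean level. Under SW-138, the eIF2 phosphatase subunit gene PPP1R15A, the transcription factor gene DDIT3, the sestrin gene SESN2, the mitochondrial carboxykinase gene PCK2 and the amino acid transporter gene SLC38A2 were higher than under SW-113, by 1.18-fold to 1.45-fold. None of the 47 was lower past the threshold. Neither ATF4 itself nor any kinase or synthetase passed. In bulk RNA, a difference in the share of cells and one in RNA per cell cannot be told apart.

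All 47 genes had enough counts to test. Across all 16905 tested genes, 6.82% were past an adjusted p of 0.05 (edgeR quasi-likelihood test, Benjamini-Hochberg over all tested genes), and among the 47 it was 10.6% (5 genes). Over all genes 2.76% were higher and 4.06% lower. Over the 10060 tested genes within the same range of mean level, 7.24 to 816 CPM, it was 9.76% in either direction and 3.88% higher. The median log2 fold change was 0.07 over the 47 and 0.01 over all tested genes, and 36 of the 47 were above 0, as were 51.5% of all tested genes. In 16 of the 47, or 34%, the 3 libraries of one compound did not overlap those of the other, against 27.9% of all tested genes. Of these 16, 12 were higher under SW-138 and 4 lower, where 12.4% of all tested genes were higher without overlap and 15.4% lower. The number past the threshold changed when single libraries were left out, as it did over all tested genes. Among the 47 it was 4, 11 and 2 without SW-138 replicates 1, 2 and 3, and 1, 2 and 1 without SW-113 replicates 1, 2 and 3. In percent of the 47 this was 8.51, 23.4 and 4.26, then 2.13, 4.26 and 2.13. Of all tested genes 2.93%, 9.39% and 3.49%, then 3.07%, 2.64% and 1.74% passed in the same fits. Each of these fits sets 2 libraries against 3, and the part of that smaller number in lost calls was not tested. DDIT3 lost its call at log2 0.37 without SW-138 replicate 1 and at 0.28 without SW-113 replicate 3. With all libraries it was at 0.35.

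**Figure D1:**
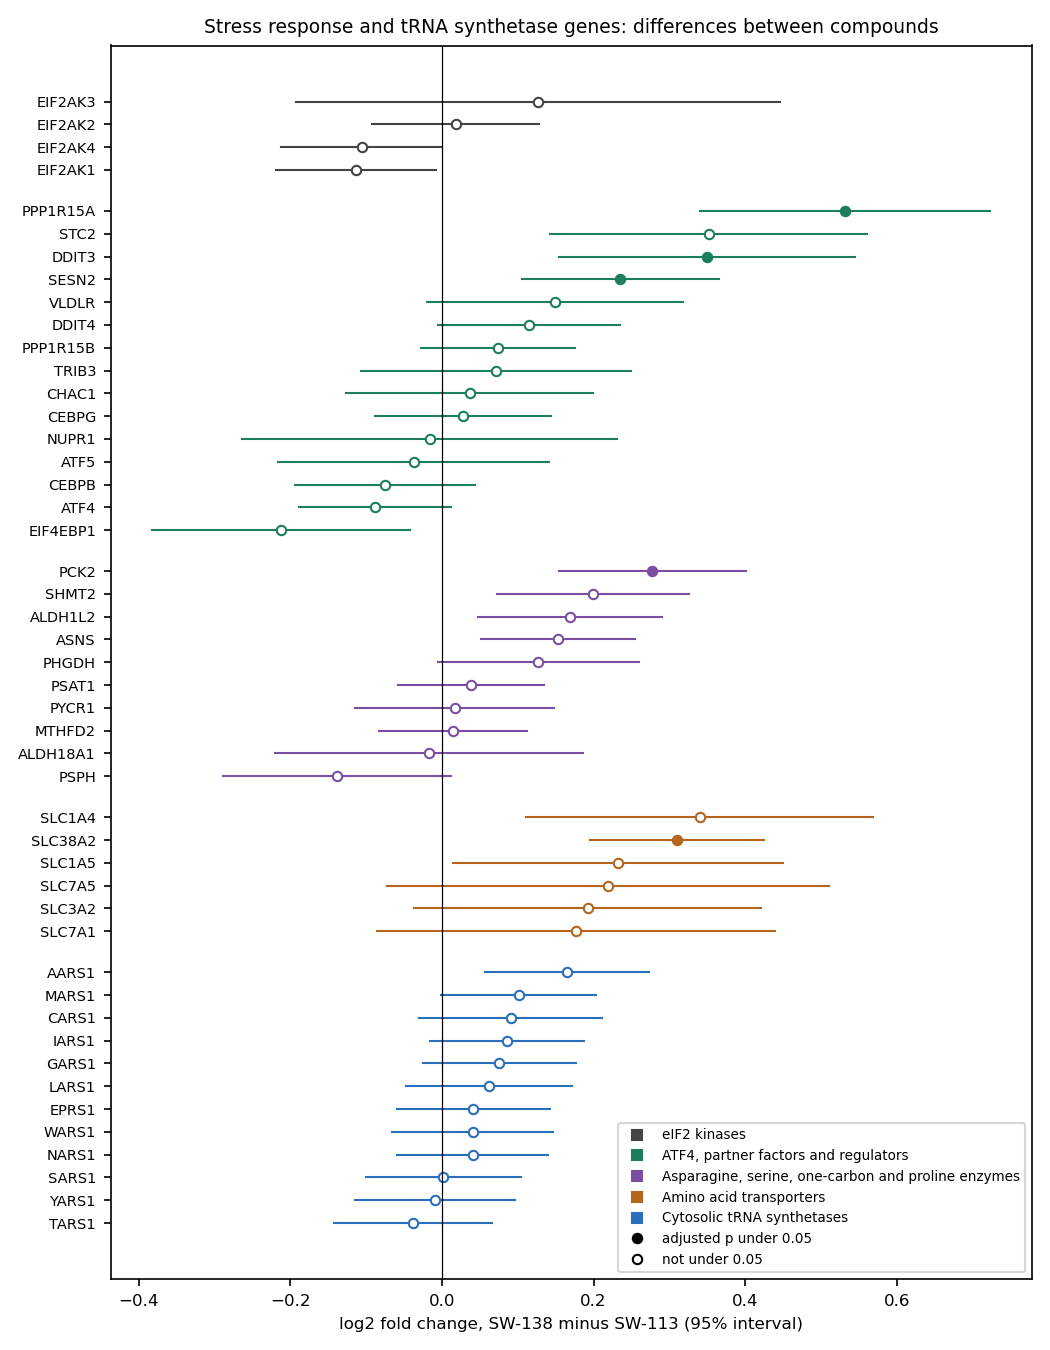
Log2 fold changes of the 47 genes, SW-138 minus SW-113, by role, with 95% intervals (edgeR fold change, limma-voom standard error, n = 3 libraries per compound). Filled circles mark the 5 genes with an adjusted p under 0.05, all to the right of 0, from 0.23 in SESN2 to 0.53 in PPP1R15A.

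None of the kinase genes passed. EIF2AK3 was scarce, at 9.11, 6.33 and 7.17 CPM in SW-138 libraries and 7.25, 6.07 and 7.52 CPM in SW-113 libraries. The groups overlapped, and its interval, -0.19 to 0.45 on the log2 scale, is the widest of the 47. EIF2AK4 was at 159, 156 and 149 CPM under SW-138 and 161, 170.0 and 168 CPM under SW-113, so every SW-138 library lay below every SW-113 library. Its log2 fold change was -0.11 ± 0.05 (SE; edgeR, Benjamini-Hochberg adjusted p = 0.246). EIF2AK1 likewise did not overlap, at 104 ± 3.45 CPM under SW-138 and 112 ± 2.12 CPM under SW-113 (SD, n = 3; edgeR adjusted p = 0.202). EIF2AK2 averaged 133 CPM under SW-138 and 132 CPM under SW-113 (log2 0.02 ± 0.05).

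ATF4 (ENSG00000128272, GRCh38 chromosome 22, 39519695 to 39522685) was at 525, 503 and 538 CPM in SW-138 libraries and 542, 558 and 563 CPM in SW-113 libraries. The groups did not overlap, and SW-138 was on the low side. On the log2 scale it differed by -0.09 ± 0.04 (SE; 95% interval -0.19 to 0.01; edgeR adjusted p = 0.342). CEBPB and CEBPG, which encode dimer partners of ATF4, were at -0.07 ± 0.05 and 0.03 ± 0.05. ATF5, a related factor whose mRNA is also under translational control, was at -0.04 ± 0.08, and NUPR1, a small stress-induced chromatin protein, at -0.02 ± 0.11.

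DDIT3 (ENSG00000175197, chromosome 12, 57516588 to 57521737) encodes CHOP, a factor tied to prolonged stress. It was at 40.6, 40.7 and 44.3 CPM in SW-138 libraries and 31.0, 37.8 and 29.7 CPM in SW-113 libraries. The groups did not overlap, although SW-113 replicate 2 came close to the SW-138 values. The log2 fold change was 0.35 ± 0.09 (SE; interval 0.15 to 0.55; edgeR adjusted p = 0.041). The call was lost without SW-138 replicate 1 or 3 or SW-113 replicate 1 or 3 (0.28 to 0.47 when each library was left out in turn). DDIT3 lies tail to tail with the synthetase gene MARS1, and 355 of its 1307 exon bases (27.2%) are also MARS1 exon on the other strand. MARS1 averaged 495 CPM under SW-138 and 461 CPM under SW-113, and the strand setting of the counting was not given in the sources used here, so reads of the pair may not be separated. The same holds for ATF5, which shares 21.2% of its exon bases with NUP62 (66.1 CPM under SW-138 and 63.1 CPM under SW-113), for MTHFD2 (27.2% with SLC4A5, at 2.15 CPM under SW-138 and 1.52 under SW-113) and for EIF2AK1 (9.59% with AIMP2, at 23.4 CPM under SW-138 and 26.3 under SW-113).

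TRIB3, CHAC1, DDIT4 and VLDLR, which CHOP or ATF4 are known to raise, did not pass. TRIB3, a pseudokinase that restrains ATF4 and CHOP, was at 309.8, 321 and 324 CPM under SW-138 and 284, 349.5 and 275 CPM under SW-113. CHAC1, a glutathione-degrading enzyme, was at 40.3, 45.4 and 47.003 CPM under SW-138 and 42.4, 46.2 and 40.6 CPM under SW-113. Both overlapped, with log2 fold changes of 0.07 ± 0.08 and 0.04 ± 0.07 and intervals of -0.11 to 0.25 and -0.13 to 0.20. DDIT4, which restrains the growth kinase mTORC1, was at 0.11 ± 0.05 (edgeR adjusted p = 0.273), and VLDLR, a lipoprotein receptor, at 0.15 ± 0.08 (edgeR adjusted p = 0.282).

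PPP1R15A (ENSG00000087074, chromosome 19, 48872392 to 48876057) encodes GADD34, the inducible subunit that directs a phosphatase to eIF2 and so ends the response. It had the largest difference of the 47. Its levels were 97.7, 99.8 and 123 CPM in SW-138 libraries and 73.7, 78.5 and 69.6 CPM in SW-113 libraries, with no overlap. It was 1.45-fold higher (log2 0.53 ± 0.09, SE; interval 0.34 to 0.72; edgeR adjusted p = 0.00744). The call held in 5 of the 6 fits that left out a library and was lost without SW-113 replicate 3 (0.42 to 0.59). PPP1R15B, the constitutive counterpart, was at 106 ± 2.90 CPM under SW-138 and 101 ± 0.924 CPM under SW-113, and its log2 value of 0.07 ± 0.05 did not pass.

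SESN2 (ENSG00000130766, chromosome 1, 28259527 to 28282491), a leucine-binding protein that restrains mTORC1 and is also a p53 target, was at 97.8, 93.4 and 103 CPM in SW-138 libraries and 80.5, 88.7 and 81.1 CPM in SW-113 libraries. The groups did not overlap. It was 1.18-fold higher (log2 0.23 ± 0.06, SE; edgeR adjusted p = 0.0413), and the call was lost without any 1 of the libraries other than SW-138 replicate 2. EIF4EBP1, a repressor of cap-dependent translation raised by ATF4, lay on the other side, at 146 ± 17.4 CPM under SW-138 and 169 ± 2.52 CPM under SW-113 (SD, n = 3). No library overlapped, but the log2 fold change of -0.21 ± 0.08 did not pass (edgeR adjusted p = 0.135). STC2, a secreted glycoprotein induced under stress, was just outside the threshold at 0.35 ± 0.09 (edgeR adjusted p = 0.0535). Its libraries overlapped, with 254, 202 and 257 CPM in SW-138 libraries and 203, 169.6 and 186 CPM in SW-113 libraries. It passed with each other scaling, filter or model that kept all 6 libraries except limma-voom (adjusted p = 0.0548), and without SW-138 replicate 2 (edgeR adjusted p = 0.00162). Without any 1 of the other 5 libraries it did not pass (edgeR adjusted p = 0.0756 to 0.186).

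**Figure D2:**
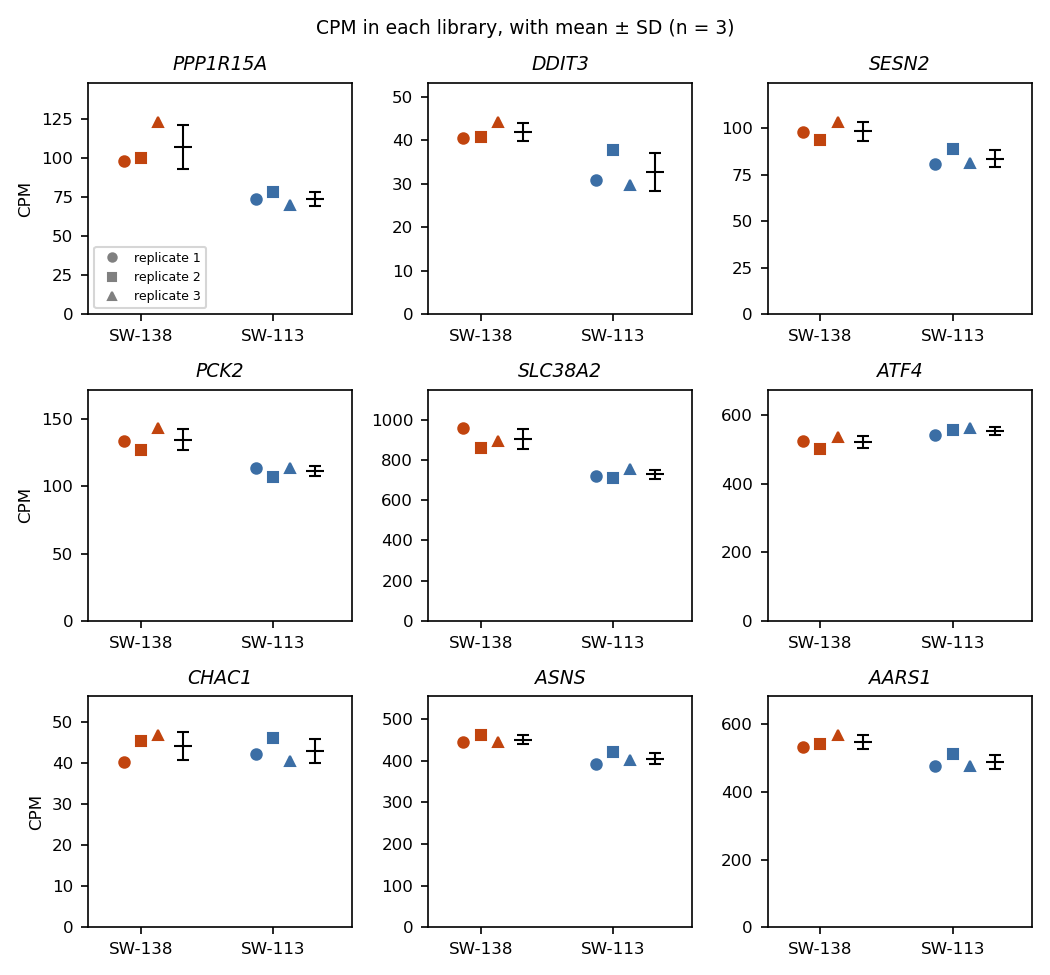
CPM of 9 genes in each library, SW-138 on the left and SW-113 on the right of each panel, with the mean and SD of 3 libraries in black and 1 symbol per replicate number. PPP1R15A, DDIT3, SESN2, PCK2 and SLC38A2 lie higher in every SW-138 library. ASNS and AARS1 also do, without passing the test. ATF4 lies lower in every SW-138 library without passing the test, and CHAC1 overlaps.

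Among the metabolic enzymes, PCK2 (ENSG00000100889, chromosome 14, 24094053 to 24110598), which makes phosphoenolpyruvate in mitochondria, was the 1 of 10 that passed. It was at 134, 127 and 143 CPM in SW-138 libraries and 113.2, 107 and 113.2 CPM in SW-113 libraries. No library overlapped, and the log2 fold change was 0.28 ± 0.06 (SE; interval 0.15 to 0.40; edgeR adjusted p = 0.0187). The call was lost without SW-138 replicate 3 or any SW-113 library (0.24 to 0.31). ASNS (asparagine synthetase), a widely used readout of ATF4, was at 445, 463 and 444 CPM under SW-138 and 393, 420.3 and 403 CPM under SW-113. The groups did not overlap, but its 0.15 ± 0.05 did not pass (edgeR adjusted p = 0.103; interval 0.05 to 0.25). It passed with scaling by total count alone (edgeR adjusted p = 0.034) and with DESeq2 (adjusted p = 0.0431). In those settings 7.69% and 8.09% of all tested genes passed. With limma-voom it did not pass (adjusted p = 0.0749), nor in any fit that left out a single library.

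The serine pathway enzymes PHGDH, PSAT1 and PSPH convert a glycolytic intermediate to serine in turn. PHGDH was at 420.1, 462 and 477 CPM under SW-138 and 391, 433 and 420.4 CPM under SW-113. PSAT1 was at 567, 572 and 577 CPM under SW-138 and 553, 542 and 576 CPM under SW-113. Both overlapped between compounds, and PSPH, at -0.14 ± 0.07, pointed the other way from PHGDH (0.13 ± 0.06) and PSAT1 (0.04 ± 0.04), with none past the threshold.

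Mitochondrial one-carbon enzymes take serine further. SHMT2, which splits serine into glycine and a one-carbon unit, was at 308 ± 22.5 CPM under SW-138 and 268 ± 4.59 CPM under SW-113 (SD, n = 3). ALDH1L2, which oxidises formyl folate, was at 104 ± 6.44 CPM under SW-138 and 92.6 ± 1.08 CPM under SW-113. Neither overlapped and neither passed (edgeR adjusted p = 0.0769 and 0.0991). Both passed with scaling by total count alone (edgeR adjusted p = 0.0232 and 0.0433). SHMT2 also passed with DESeq2 (adjusted p = 0.0177), and neither passed with limma-voom. MTHFD2, the middle enzyme of this route, was at 466, 471 and 451 CPM under SW-138 and 444, 465 and 464 CPM under SW-113, and its log2 difference was 0.01 within -0.08 to 0.11. The proline enzymes PYCR1 and ALDH18A1 were at 0.02 ± 0.06 and -0.02 ± 0.09.

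The amino acid transporters were the role with the highest median difference, 0.23 on the log2 scale, and all 6 were above 0 in each fit run, but 1 passed. SLC38A2 (ENSG00000134294, chromosome 12, 46358189 to 46372867), a sodium-coupled carrier of neutral amino acids that is raised by amino acid shortage, was at 958, 858 and 893 CPM in SW-138 libraries and 721, 711 and 754 CPM in SW-113 libraries. The groups did not overlap. It was 1.24-fold higher (log2 0.31 ± 0.05, SE; interval 0.19 to 0.42; edgeR adjusted p = 0.0124). The call was lost without SW-113 replicate 1 or 2 (0.27 to 0.34) and with length and GC trends removed (log2 0.24; edgeR adjusted p = 0.0744). With all libraries kept, SLC1A4 also passed with total count alone, DESeq2 or trends removed. SLC7A5, SLC3A2, SLC1A5 and SLC1A4 passed with a filter of 1 count in 1 library, where 6.54% of all tested genes passed. That filter changed the p-values far more than the differences. SLC7A5 was at log2 0.22 with it and in the main fit, with edgeR adjusted p = 0.00724 and 0.365.

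The other transporters overlapped between the compounds. SLC7A5, the light chain of the leucine exchanger LAT1, was at 788, 542 and 747 CPM under SW-138 and 659, 512 and 615 CPM under SW-113. SLC3A2, the heavy chain that carries LAT1 to the membrane, was at 240.3, 179 and 241 CPM under SW-138 and 201, 179.7 and 198 CPM under SW-113. In both, the replicate 2 library was the lowest of its compound. SLC7A1, a carrier of arginine and lysine, showed the same order, with 291, 206 and 257 CPM under SW-138 and 251, 197 and 219 CPM under SW-113. The glutamine carrier SLC1A5 and the neutral carrier SLC1A4 were at 0.23 ± 0.10 and 0.34 ± 0.10 (edgeR adjusted p = 0.201 and 0.0752).

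In all 6 transporter genes replicate 2 was the lowest library of each compound, as it was in 0 of the 12 synthetases, 11 of the 47 genes and 17.8% of all tested genes. Transporters were not alone in this. Replicate 2 was likewise lowest in the markers VIM, FN1, CDH2, SPARC and COL6A1, but not in ZEB1, TGFBI, TWIST1 or S100A6. Among the ATF6 and XBP1 genes below, PDIA4, PDIA6, CALR and CANX had it, but ATF6, XBP1 and HSPA5 did not. These genes were picked after their values were seen. The summed transporter level was 2711, 2126 and 2582 CPM in SW-138 libraries and 2193, 1905 and 2142 CPM in SW-113 libraries, so SW-138 replicate 2 lay within the SW-113 range. Without that library the other 5 transporters passed too, with log2 fold changes of 0.30 in SLC7A1 to 0.45 in SLC1A4 (edgeR adjusted p = 0.0462 and 0.00231). In that fit 9.39% of all tested genes passed, beside 6.82% with all 6 libraries, and 803 genes were higher, beside 466. Without any 1 of the other libraries none of these 5 passed. Without SW-138 replicate 1, the log2 fold change was 0.06 in SLC7A1 and 0.12 in both SLC7A5 and SLC3A2, without SW-138 replicate 3 it was 0.13 in SLC3A2, and without SW-113 replicate 2 it was 0.10 in SLC7A1 and 0.12 in SLC7A5. Without both replicate 2 libraries, a setting chosen after the values were seen, 4 of these 5 passed, SLC7A1 being the exception (0.22; edgeR adjusted p = 0.0701). Of all tested genes 8.38% passed in that setting. The part that the libraries' difference plays in the transporter result was not tested.

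**Figure D3:**
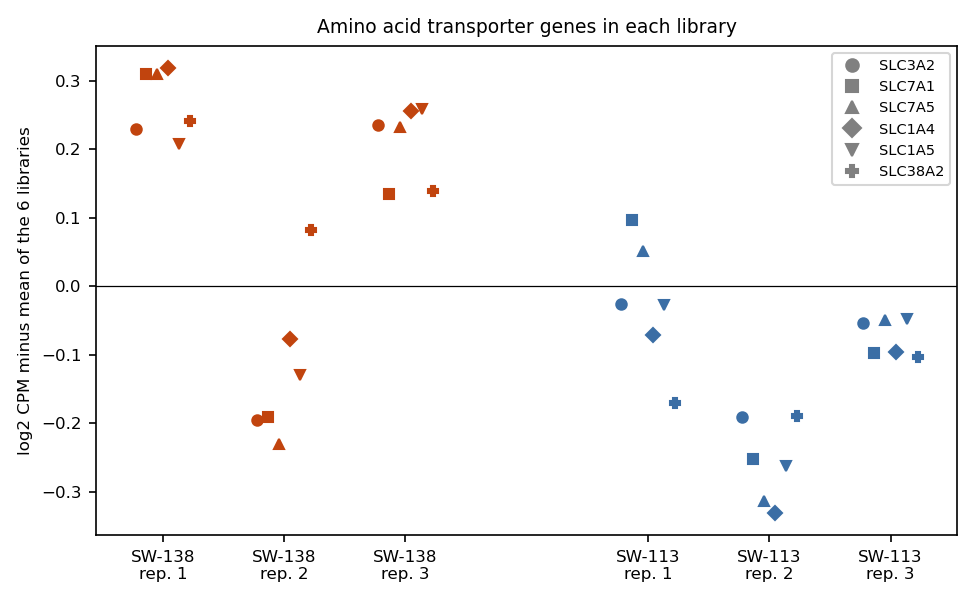
Log2 CPM of the 6 amino acid transporter genes in each library, minus each gene's mean over the 6 libraries, SW-138 libraries being on the left. In each compound the replicate 2 library holds the lowest value of every transporter, and SLC38A2 is the transporter whose SW-138 libraries all lie above its SW-113 libraries.

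Cytosolic tRNA synthetases, which load amino acids onto tRNAs for translation, gave no call. None of 12 passed (edgeR; 1 had an unadjusted p under 0.05, DESeq2 called 1 and limma-voom 0), with a median log2 fold change of 0.05 and a range of -0.04 in TARS1 to 0.17 in AARS1. AARS1, the alanine enzyme, was at 532, 541 and 569 CPM in SW-138 libraries and 477, 511 and 476 CPM in SW-113 libraries. These did not overlap, and the log2 fold change was 0.17 ± 0.05 (SE; interval 0.06 to 0.27; edgeR adjusted p = 0.099). GARS1 (0.08 ± 0.05) and MARS1 (0.10 ± 0.05) also did not overlap. The remaining 9 did, from -0.04 ± 0.05 in TARS1 over 0.00 ± 0.05 in SARS1 to 0.09 ± 0.05 in CARS1 and IARS1. LARS1 was at 0.06, EPRS1, WARS1 and NARS1 at 0.04 each and YARS1 at -0.01. The sum over all 12 was 5471 ± 72.4 CPM under SW-138 and 5241 ± 179 CPM under SW-113 (SD, n = 3), and the libraries overlapped.

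Per kilobase of transcript, the synthetases formed the most even role, and the factors and regulators the most spread. Each level here is CPM divided by the length of the gene's longest coding transcript in GENCODE 29. Synthetases lay between 84.0 (YARS1) and 196 (GARS1) CPM per kilobase under SW-138 and between 81.9 (CARS1) and 186 (GARS1) under SW-113. PSAT1 and ATF4 were the most abundant of the 47, at 261 and 258 CPM per kilobase under SW-138 and 255 and 275 under SW-113. EIF2AK3 was the lowest, at 1.62 CPM per kilobase under SW-138 and 1.495 under SW-113, while EIF2AK4 was at 28.1 and 30.2. DDIT3 and PPP1R15A were intermediate, at 39.3 and 45.0 CPM per kilobase under SW-138 and 30.7 and 31.1 under SW-113.

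**Figure D4:**
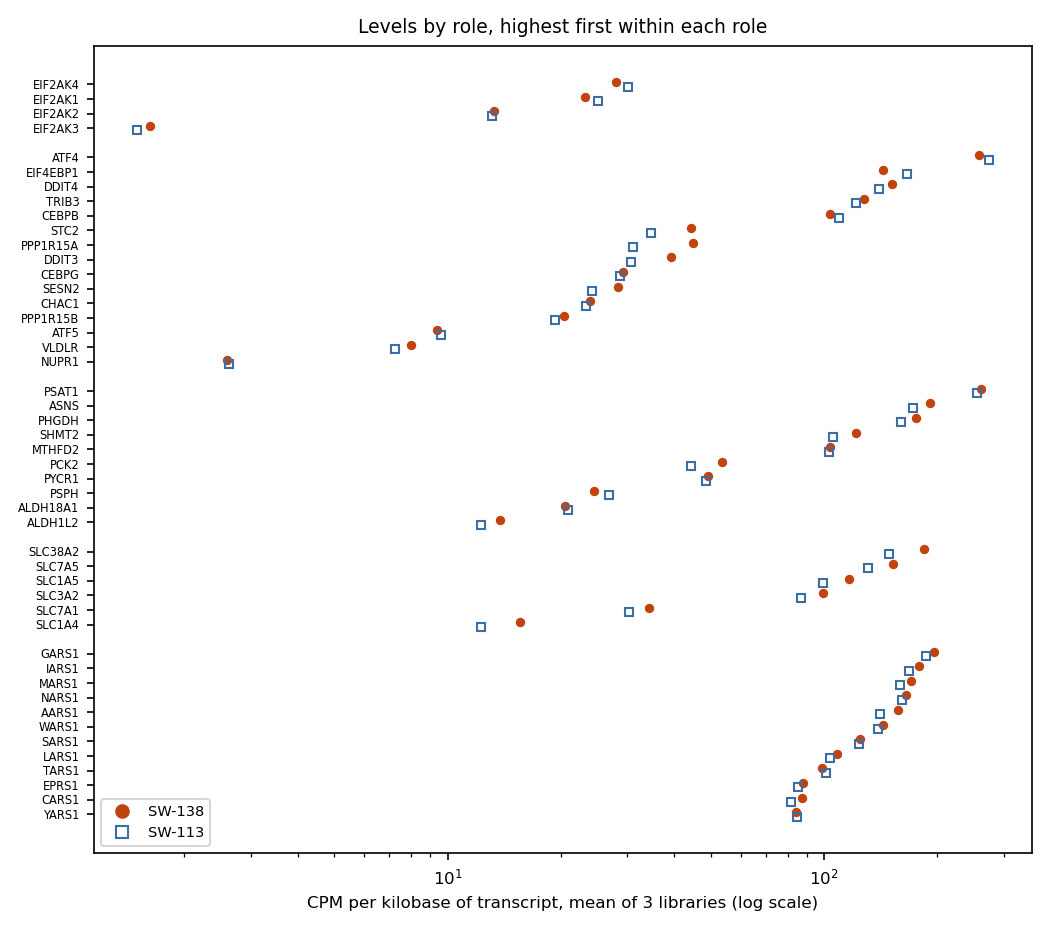
CPM per kilobase of transcript for the 47 genes (log axis, mean of 3 libraries, SW-138 as filled circles above SW-113 as open squares), ordered by level within each role. The 12 synthetases sit within a narrow band, from 84.0 to 196 under SW-138, while the 15 factors and regulators range from 2.60 in NUPR1 to 258 in ATF4. The NUPR1 value rests on a longest coding transcript of 5491 bases, and the next lowest of these 15 was VLDLR at 8.02 under SW-138.

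ATF4 binds with C/EBP factors at a composite element, searched here as TGATGNAA on both strands of RefSeq promoter windows (GRCh38.p14, from 250 bases before to 50 after each listed start). Windows were found for 38 of the 47 genes. At least 1 match lay in windows of 15 of them, or 39.5%, where 4.46% of all 27305 genes with a window had one. By role this was 7 of 10 synthetases, 4 of 6 transporters, 1 of 6 enzymes, 3 of 13 factors and regulators and 0 of 3 kinases. These genes were listed partly as known ATF4 targets, so the share describes the list. The stretches below show 4 matches that lie before every RefSeq start of their gene (in GENCODE 29, ASNS and CHAC1 reach further out and include theirs), with the match in capitals and 20 bases on each side, read along the strand that spells TGATGNAA.
ASNS, chr7:97872449-97872496, minus strand: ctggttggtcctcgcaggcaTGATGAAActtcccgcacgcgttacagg
CHAC1, chr15:40953242-40953289, minus strand: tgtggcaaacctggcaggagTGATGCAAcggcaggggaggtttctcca
AARS1, chr16:70289666-70289713, plus strand: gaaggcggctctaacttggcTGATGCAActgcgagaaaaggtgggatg
PPP1R15B, chr1:204412017-204412064, minus strand: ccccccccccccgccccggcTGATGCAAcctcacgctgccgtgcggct

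The 15 genes with a match included none of the 5 genes past the threshold, all of which had a window. The median log2 fold change was 0.09 over these 15 genes (-0.04 to 0.34) and 0.07 over the 23 with a window and no match (-0.11 to 0.53). A window without a match says only that these letters are not within it.

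Other genes of the response were taken from 6 further lists, of which 89 of 90 genes could be tested. Of the 89, 4 were higher and 4 lower past the threshold, 8.99% in all beside 6.82% of all tested genes, and their median log2 fold change was 0.01. Further ATF4 targets had 3 of 24 higher and 1 lower. ATF3, a repressor induced by stress, was at 17.5, 15.6 and 16.9 CPM under SW-138 and 11.9, 12.7 and 12.2 CPM under SW-113 (log2 0.44 ± 0.08, SE; edgeR adjusted p = 0.00792), and it passed in each of the 6 fits that left out a library. NIBAN1 (FAM129A in the table) was at 0.30 ± 0.06 and the cysteine-making enzyme gene CTH at 0.26 ± 0.07. SESN3, a relative of SESN2, went the other way, at 8.38 ± 0.733 CPM under SW-138 and 11.3 ± 0.955 CPM under SW-113 (SD, n = 3; log2 -0.43 ± 0.10).

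In the list of ATF6 and XBP1 genes, the other arms of the unfolded protein response, 1 of 22 was higher, the sensor gene ATF6 (0.21 ± 0.05), and 1 lower, the translocon subunit gene SEC61B (-0.31 ± 0.08). The chaperone HSPA5 (BiP) is the usual readout of these arms and was chosen here after its values were seen. It was at 633, 492 and 574 CPM under SW-138 and 601, 572 and 545 CPM under SW-113 (log2 -0.02 ± 0.08). Of the 22 genes, 14 were above 0 and 8 below. In 6 of them (27.3%) the compounds did not overlap, 4 higher and 2 lower, beside 27.9% of all tested genes. ERN1 (0.31 ± 0.09), XBP1 (0.22 ± 0.06) and SDF2L1 (-0.32 ± 0.12) were among these without passing (edgeR adjusted p = 0.0525, 0.0732 and 0.126). Mitochondrial tRNA synthetases had 1 of 17 lower, CARS2 (-0.25 ± 0.06), and 0 higher. The list for mitochondrial stress had 1 of 7 lower, the protease subunit gene CLPP (-0.28 ± 0.07). No gene passed among 8 subunits of eIF2 and eIF2B or among 11 other cytosolic synthetases and scaffold proteins (edgeR; 1 in each had an unadjusted p under 0.05). The smallest p-values there belonged to EIF2S3 (-0.14 ± 0.04) and EIF2B1 (-0.11 ± 0.05), and to AIMP2 (-0.16 ± 0.07) and RARS1 (-0.09 ± 0.05). Each of the calls on NIBAN1, CTH, SESN3, ATF6, SEC61B, CARS2 and CLPP was lost without SW-138 replicate 1 and without SW-113 replicate 1 or 3. Those on CARS2, CLPP, ATF6 and SEC61B were lost without SW-113 replicate 2, and those on NIBAN1, CTH, SESN3, ATF6 and SEC61B without SW-138 replicate 3. With length and GC trends removed, NIBAN1, CTH, ATF6 and SEC61B did not pass, and with total count alone CARS2, SESN3, CLPP and SEC61B did not. CTH also did not pass with limma-voom, nor SEC61B with upper-quartile scaling. In all these fits each kept its sign. The log2 fold change of CTH was 0.22 or more without single libraries and 0.24 or more over the other settings. The total past the threshold was 17 of 89 (19.1%) without SW-138 replicate 2, where 9.39% of all tested genes passed.

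Transcript length moved with the comparison as a whole. Protein-coding genes were put in 5 equal classes by transcript length. In the shortest class, up to 1973 bases, 1.01% were higher and 13.3% lower, and in the longest 5.42% were higher and 1.58% lower. Of the 47 genes, 7 were in the shortest class, with DDIT3 higher and none lower, and 4 in the longest, with none past the threshold. With trends in length and GC content removed, 6 of the 47 (12.8%) were called, DDIT3, SESN2, PPP1R15A and PCK2 among them. Of all tested genes 6.81% were called in that setting. With stable noncoding and mitochondrial genes left out before scaling, 6 of the 47 were called, the 5 of the main fit and STC2, beside 6.83% of all tested genes. Pseudogenes named after 1 of the 47 held few counts: SLC7A5P2 held 0.283% as many counts as SLC7A5, the highest share among them.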

How the data were processed

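The authors deposited 1 table of expected counts (estimated reads per gene, not scaled) with a column for each of the 6 libraries. Per the submitters' processing notes, Trimmomatic 0.39, Bowtie2 2.5.4, RSEM 1.3.3, DESeq2 1.42.0 and GRCh38 were used. The role of each tool is not stated. The annotation version is not given in the sources used here, nor are strand setting and filters. Per the labels' protocols, ribosomal RNA was depleted before library preparation. Counts were rounded to whole numbers, filtered with filterByExpr and compared, SW-138 minus SW-113, with edgeR 4.0.16 (TMM, quasi-likelihood test, Benjamini-Hochberg over 16905 genes, threshold 0.05). Standard errors and 95% intervals used limma-voom 3.58.1, centred on edgeR fold changes. Principal components used log2 CPM with 0.1 added. Coordinates came from GENCODE 29 (GRCh38) and promoters from RefSeq (GRCh38.p14). The fits were also run on counts simulated from these data's own means and dispersions, which checks the code and not the results here. Alternatives changed the scaling, filter, model, threshold or replicate block, removed length and GC trends or noncoding genes, or left out libraries, and leaving out both replicate 2 libraries was chosen after seeing the data. The members, lists, tests and alternatives were chosen with earlier results of these data known. By a preset rule, values per library were given for members past the threshold and for 14 named members, and each further list was represented by up to 4 genes past it or else the 2 with the smallest p. The values per library of STC2, HSPA5 and ATF3, and the fold changes of ERN1, XBP1 and SDF2L1, were added after they were seen.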

Additional observations from a re-analysis of the deposited data

How the results depend on the processing

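Counts of calls depended on the setting. Over all genes, the 1153 calls (466 higher, 687 lower) were 6.82% of 16905 tested. They became 2060 of 31501 (6.54%) with genes kept at 1 count in 1 library and 2012 (11.9%) at an adjusted threshold of 0.1. Scaling by total count alone gave 923 higher and 377 lower. Leaving out single libraries gave 303 to 1616. Leaving out both replicate 2 libraries gave 1422 over all genes (8.38%), 10 among the 47 (21.3%) and 17 in the further lists (19.1%). Among the 47 genes, 5 calls became 11 with total count alone and 12 with the 1-count filter (1 of them lower). They became 10 with DESeq2, 10 at the threshold of 0.1 and 1 to 11 without single libraries. For total count, the 1-count filter, DESeq2 and the 0.1 threshold this was 23.4%, 25.5%, 21.3% and 21.3% of the 47. Of all tested genes 7.69%, 6.54%, 8.09% and 11.9% passed in the same settings. Among the further lists, 8 became 13 (14.4%) with the 1-count filter and 5 (5.62%) with length and GC trends removed. Without single libraries they numbered 1 to 17. With trends removed, 6.81% of all tested genes passed. The cause of these changes was not tested. Of 799 refitted values of the 47 genes, 17 lost a call, 47 gained one and 0 called values changed sign, while 32 values of 14 genes never past the threshold did.

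Same-numbered libraries deviated together weakly (r = 0.050, 0.223 and 0.058 over genes for replicates 1, 2 and 3), SW-138 replicate 1 was closest to SW-113 replicate 3 (0.108), and the labels do not pair them. With a replicate block the calls numbered 2363 over all genes (14%), 16 among the 47 (34%, 15 higher and 1 lower) and 14 in the further lists (15.7%). Beside the 5 genes, the block called the transporters SLC7A5, SLC3A2, SLC7A1, SLC1A4 and SLC1A5, and STC2, ASNS, ALDH1L2, SHMT2 and AARS1 as higher, and EIF4EBP1 as lower. With 3 libraries per compound, a gene that did not pass is not shown to be equal between them.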
